A study of Mus musculus with 9 samples.

Results

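The Iroquois homeobox clusters IrxA (Irx1, Irx2 and Irx4, on chromosome 13) and IrxB (Irx3, Irx5 and Irx6, on chromosome 8) held 7 of the 3761 CHD7 peaks found in cardiac progenitor (CP) cells. Of these, 5 lay in IrxA and 2 in IrxB. The peaks were chosen by position. A peak belonged to a gene if its midpoint fell in the regulatory domain of that gene, which reaches from 5 kb upstream to 1 kb downstream of the transcription start site (TSS) and is extended on both sides to the next gene, by at most 1 Mb. All 6 Iroquois genes among the 21911 protein-coding genes of the annotation were included, whether or not they had a peak.

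The cells were wild-type (WT) mouse CP cells, taken at day 5 of the differentiation of embryonic stem cells into cardiomyocytes, with 500000 cells for each library. CHD7 is an ATP-dependent chromatin remodeller whose loss of function causes CHARGE syndrome, in which heart defects are common. CUT&RUN maps where a protein sits on DNA: an antibody guides a nuclease to it, and the fragments cut free are read by sequencing. There were 9 libraries, 3 biological replicates each of anti-CHD7, the IgG negative control and input. The authors called peaks in each anti-CHD7 library against IgG and kept those overlapping in at least 2 replicates. The resulting list pools the 3 replicates and gives the position of each peak with no height, read count or P-value, so that depth and the spread between replicates are unknown and every interval below covers counting error only. The list holds no expression value, so the identity of the cells could not be checked against markers.

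Iroquois proteins are homeodomain transcription factors of the TALE class, named after a three-amino-acid loop extension in the homeodomain. Mammalian genomes carry them in a pair of clusters, each with 3 genes, that arose by duplication of an ancestral cluster, so that Irx1 is the counterpart of Irx3, Irx2 of Irx5 and Irx4 of Irx6. In the heart, Irx4 marks the ventricular myocardium, Irx3 is needed for fast conduction through the ventricular conduction system, and Irx5 shapes the gradient of repolarisation across the ventricular wall by repressing Kcnd2, a potassium channel gene. Both clusters are known for long stretches of noncoding DNA with many conserved regulatory elements between the genes.

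The central 300 bp of 4 peaks are printed here because they are the elements on which the comparisons turn. In each cluster they are the peak nearest to an Iroquois TSS (peak2836 in IrxA and peak1744 in IrxB) and the peak with a match to the NKX2 motif (peak2837 in IrxA and peak1743 in IrxB). Peaks are numbered by their order in the list. The sequences are from GRCm38, plus strand, 5′ to 3′, and capitals mark matches to the motifs described further on.
peak2836 chr13:72661780-72662079: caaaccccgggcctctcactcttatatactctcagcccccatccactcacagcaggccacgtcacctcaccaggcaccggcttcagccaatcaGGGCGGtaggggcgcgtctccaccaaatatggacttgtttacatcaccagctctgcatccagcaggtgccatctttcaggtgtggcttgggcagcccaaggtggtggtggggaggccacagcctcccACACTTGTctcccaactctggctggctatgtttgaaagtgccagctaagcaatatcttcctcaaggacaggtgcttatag
peak2837 chr13:72924774-72925073: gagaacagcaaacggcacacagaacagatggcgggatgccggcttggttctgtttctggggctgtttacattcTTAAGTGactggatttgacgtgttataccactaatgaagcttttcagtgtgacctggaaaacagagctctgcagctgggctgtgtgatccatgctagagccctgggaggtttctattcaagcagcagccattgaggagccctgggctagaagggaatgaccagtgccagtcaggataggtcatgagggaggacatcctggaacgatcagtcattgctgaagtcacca
peak1743 chr8:92266165-92266464: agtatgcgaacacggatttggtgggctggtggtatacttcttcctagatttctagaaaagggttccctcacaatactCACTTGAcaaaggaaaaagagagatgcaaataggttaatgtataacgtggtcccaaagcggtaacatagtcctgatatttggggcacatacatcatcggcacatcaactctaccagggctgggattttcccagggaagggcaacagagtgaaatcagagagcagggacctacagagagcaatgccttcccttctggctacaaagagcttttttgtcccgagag
peak1744 chr8:92315635-92315934: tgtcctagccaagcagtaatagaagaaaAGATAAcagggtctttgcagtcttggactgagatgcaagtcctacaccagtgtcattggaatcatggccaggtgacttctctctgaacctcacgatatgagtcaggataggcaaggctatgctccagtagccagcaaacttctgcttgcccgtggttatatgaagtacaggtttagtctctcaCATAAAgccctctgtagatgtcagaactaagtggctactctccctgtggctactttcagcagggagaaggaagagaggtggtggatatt

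In IrxA, Irx2 had the most peaks of the 6 genes. Irx1 (ENSMUSG00000060969.9, chr13:71957921-71963723, minus strand) had 3 peaks in its domain of 1660097 bp (exact Poisson 95% interval 0.619 to 8.77). Irx2 (ENSMUSG00000001504.10, chr13:72628820-72634198, plus strand) had 4 peaks in 1286773 bp (1.09 to 10.2). Irx4 (ENSMUSG00000021604.15, chr13:73260479-73269608, plus strand), the ventricular marker, had 2 peaks in 696167 bp (0.242 to 7.22). These intervals overlap widely, and the order of the 3 counts is not resolved by them. With the extension limited to 100 kb, Irx2 had 1 peak and Irx5 had the most, 2.

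In IrxB, Irx3 and Irx5 shared the same 2 peaks and Irx6 had none. Irx3 (ENSMUSG00000031734.13, chr8:91798525-91802067, minus strand) had 2 peaks in a domain of 1034486 bp. Irx5 (ENSMUSG00000031737.11, chr8:92357625-92376286, plus strand) had 2 in 862372 bp, and both counts carry an interval of 0.242 to 7.22. Irx6 (ENSMUSG00000031738.14, chr8:92674288-92680956, plus strand) had 0 peaks in 463541 bp, a count that allows up to 3.69 peaks. Irx6 had the shortest domain of the 6 genes, and its absence of peaks could not be told apart from the counts of the other members at this number of peaks.

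**Figure D1:**
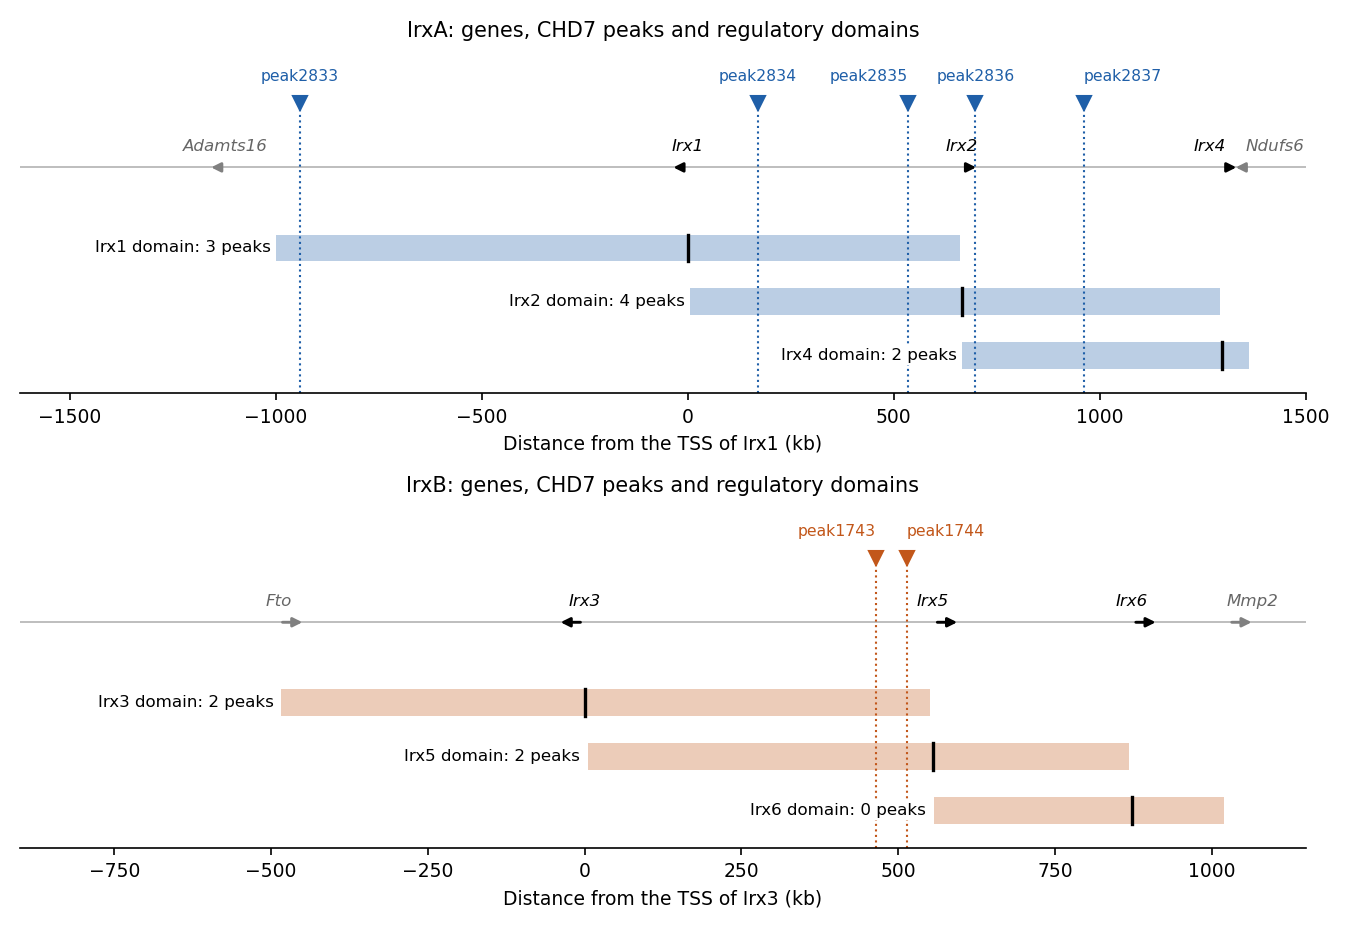
Maps of IrxA (upper) and IrxB (lower), with the distance in kb from the TSS of Irx1 or Irx3 on the horizontal axis. Arrows mark the TSS and direction of each gene (Iroquois genes in black, flanking genes in grey), triangles and dotted lines the midpoints of CHD7 peaks, and shaded bars the regulatory domains with the TSS as a black line. All 7 peaks lie between genes, the 2 peaks of IrxB lie together on the Irx5 side of the interval between Irx3 and Irx5, and no dotted line crosses the domain of Irx6.

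Of the 6 Iroquois genes, 5 had at least 1 CHD7 peak, against 22.7% of all protein-coding genes. Their domains were long, with lengths between the 87.9th (Irx6) and the 99.2nd percentile (Irx1) of all genes, for which the median domain was 90166 bp. Among the 2659 genes with a domain at least as long as that of Irx6, 44.6% had at least 1 peak, with a mean of 0.78 and a median of 0 peaks. At least 2 peaks, as in 5 of the 6 Iroquois genes, were found in 5.88% of all genes, at least 3, as in Irx1 and Irx2, in 1.75%, and at least 4, as in Irx2, in 0.529%. Of the 116 genes with at least 4 peaks, 84 had a domain at least as long as that of Irx6. The shares for at least 2, 3 and 4 peaks are over genes of all domain lengths, so they are not matched to the long Iroquois domains.

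With domain length taken into account, none of the 6 genes was called as having more CHD7 peaks than the genome-wide density gives. That density was 1.42 peaks per Mb of sequenced bases. The expected numbers were 2.36 for Irx1, 1.83 for Irx2, 0.989 for Irx4, 1.47 for Irx3, 1.23 for Irx5 and 0.658 for Irx6. Irx2, with 4 peaks, was 2.19 times its expectation (two-sided exact Poisson test, P = 0.113). Irx4, with 2 peaks, was at 2.02 times (exact P = 0.26), and Irx5 at 1.63 times (exact P = 0.346). Irx3 was at 1.36 times (exact P = 0.662) and Irx1 at 1.27 times (exact P = 0.514). Irx6, with 0 peaks, had an exact P-value of 1.0. After Benjamini-Hochberg adjustment over all 21911 genes the adjusted exact P-value was 1.0 for each of the 6, and none was below 0.05 before adjustment. Over all genes the test called 7, or 0.0319%, each with more peaks than expected, and 951 had an unadjusted P-value under 0.05. At the expectation of Irx2, 11 peaks would have been the smallest number called, so that smaller departures were not detectable with a list of this size.

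**Figure D2:**
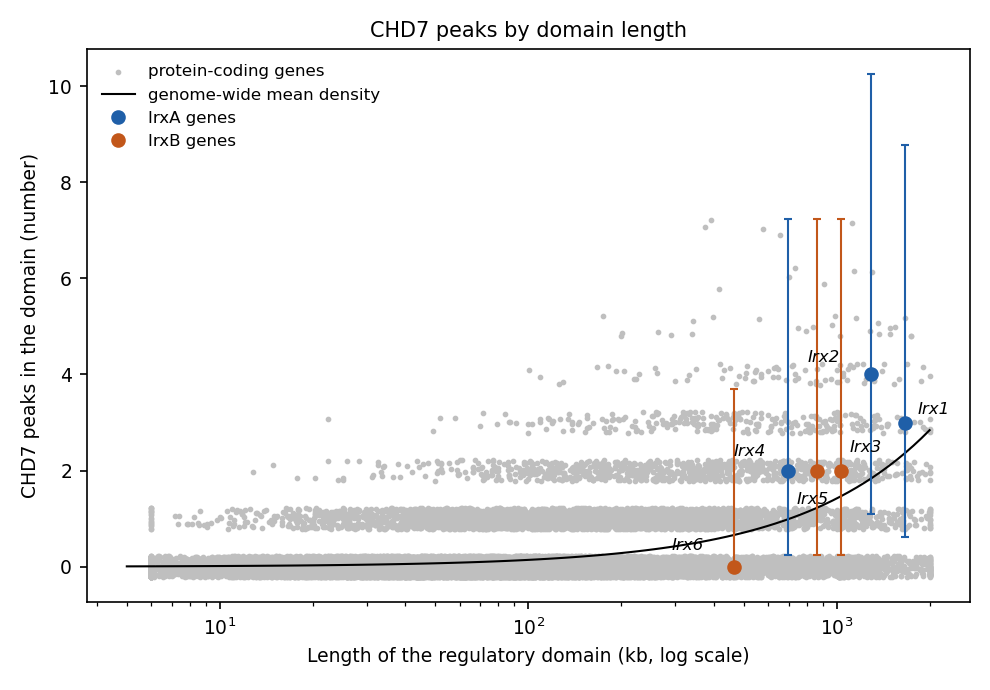
CHD7 peaks in the regulatory domain of each of the 21911 protein-coding genes (grey, spread vertically at random around whole numbers) against the length of the domain in kb on a log scale, with the Iroquois genes in blue (IrxA) and orange (IrxB). Bars are exact Poisson 95% intervals and the black line is the genome-wide mean density of 1.42 peaks per Mb, which lies inside the interval of every Iroquois gene.

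Taken as whole loci, IrxA held 2.12 peaks per Mb and IrxB 1.33. The IrxA domains together span chr13:70963723-73325987 (2362265 bp), where 3.36 peaks were expected and 5 were found (95% interval 1.62 to 11.7, or 0.687 to 4.94 per Mb). The IrxB domains span chr8:91318263-92822290 (1504028 bp), where 2.14 were expected and 2 were found (0.161 to 4.8 per Mb). Both intervals contain the genome-wide density, and also the mean density of the cluster's own chromosome, and they overlap each other. The order of the clusters turned with an extension of 100 kb, to 1.77 peaks per Mb in IrxA and 3.33 in IrxB.

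The peaks fell in some of the intervals between genes and not in others. In both clusters a divergent pair of genes, Irx1 with Irx2 and Irx3 with Irx5, is transcribed away from a shared intergenic interval, and each of these intervals held 2 peaks. The Irx1–Irx2 interval, 665097 bp from TSS to TSS, had 3.01 peaks per Mb, with peak2834 and peak2835 at 25.7% and 80.3% of the way from Irx1 to Irx2. The Irx3–Irx5 interval, 555834 bp long, had 3.60 per Mb, with peak1743 and peak1744 at 83.5% and 92.5% of the way from Irx3 to Irx5. In IrxA, peak2834 was thus nearer to Irx1 and peak2835 nearer to Irx2. In IrxB both peaks were nearer to Irx5, the counterpart of Irx2, so the clusters did not share a lean to one side.

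The intervals beyond the divergent pairs differed between the clusters in their counts. The Irx2–Irx4 interval (631677 bp) held 2 peaks, peak2836 and peak2837, at 5.2% and 46.9% of the way from Irx2. The corresponding Irx5–Irx6 interval (316539 bp) held 0. There was 1 peak, peak2833, between Irx1 and Adamts16, which encodes a secreted metalloprotease, over 1121912 bp. There was none between Irx3 and Fto, an RNA demethylase gene, over 488390 bp, none between Irx4 and Ndufs6, a mitochondrial complex I gene, over 68045 bp, and none between Irx6 and Mmp2, a matrix metalloprotease gene, over 153003 bp. With counts of 0 to 2 these differences between intervals are within counting error.

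For scale, 444 intervals between neighbouring TSSs of protein-coding genes were from 500 to 750 kb long, the range that takes in the intervals Irx1–Irx2, Irx2–Irx4 and Irx3–Irx5. Of these 444, 61.7% held no peak (Wilson 95% interval 57.1 to 66.1) and 16.0% held at least 2 (12.9 to 19.7). Among the 80 of them that were divergent, 21.2% held at least 2 peaks (13.7 to 31.4), and among the other 364, 14.8% (11.6 to 18.9). All 3 Iroquois intervals of this length held 2 peaks each. They were looked at because they belong to these loci, with their peaks already known, and no test was applied.

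CHD7 peaks were absent from the Iroquois promoters and genes. The region from 5 kb upstream to 1 kb downstream of the TSS held 0 peaks for each of the 6 genes, and so did the 6 gene bodies, which are between 3543 bp (Irx3) and 18662 bp (Irx5) long. Over all genes, 3.17% had a peak in that promoter region, so that an absence from 6 promoters is the common outcome. The share of all gene bodies with a peak was not computed. At the genome-wide density of 1.42 peaks per Mb, bodies as short as those of the 6 genes would seldom hold a peak. The body of the neighbouring gene Fto, 354915 bp long, also held 0, and fewer than 1 peak is expected at that length.

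The nearest peak to a TSS was peak2836, 33109 bp downstream of Irx2 and beyond its 3′ end. The next was peak1744, 41965 bp upstream of Irx5. For Irx1 the nearest peak, peak2834, was 170620 bp upstream, and for Irx3 it was peak1743, 464399 bp upstream. For Irx4 and Irx6 the nearest peaks were outside their own domains, at 277744 and 323606 bp, toward Slc6a3 and Slc6a2 respectively, both neurotransmitter transporter genes. Over all genes the median distance from the TSS to the nearest peak was 165942 bp (quartiles 58294 and 446277 bp), so that Irx2 and Irx5 were nearer to a peak than the lower quartile, at the 16.0th and 19.4th percentile, and Irx3 farther than the upper quartile, at the 75.9th.

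Because the domains of neighbouring genes overlap, most peaks were counted for a pair of genes. Peak2834 and peak2835 lay upstream of both Irx1 and Irx2, at 170620 and 534026 bp from Irx1 and at 494477 and 131071 bp from Irx2. Peak2836 and peak2837 lay downstream of Irx2, at 33109 and 296103 bp, and upstream of Irx4, at 598568 and 335574 bp. Peak1743 and peak1744 lay upstream of both Irx3, at 464399 and 513869 bp, and Irx5, at 91435 and 41965 bp. Only peak2833 paired an Iroquois gene with a gene of another family: it was 941537 bp downstream of Irx1 and 180375 bp upstream of Adamts16. It also lay 58463 bp inside the edge of the Irx1 domain, which is set by the 1 Mb limit. The list gives no contact between a peak and a promoter, so which gene of a pair a peak acts on, if any, was not measured.

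All 7 peaks were distal. None was within 10 kb of a protein-coding TSS, all transcripts considered (0 of 7, Wilson 95% interval 0 to 35.4%), against 43.3% of all 3761 peaks. Of the 7, 5 were over 50 kb from such a TSS (71.4%, 35.9 to 91.8%), against 24.6% of all peaks (23.2 to 26.0%), and 4 were over 100 kb away (57.1%), against 488 of the 3761. The median distance was 131071 bp, compared with 13852 bp over all peaks. When TSSs of all annotated genes were counted, pseudogenes and unverified transcripts included, the share over 50 kb was 28.6%. In that count the median distance was 33189 bp for the 7 peaks and 7395 bp over all peaks, so the 24.6% above is not its counterpart. The clusters are themselves gene-poor, and the shares were not compared with peaks of other gene-poor regions.

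None of the 7 peaks overlapped an annotated gene of any kind, whereas 39.9% of all peaks lay outside every annotated gene. Their nearest noncoding genes were lincRNAs for 6 of the 7. Peak1744 was 23466 bp from the start of Gm21817 and peak1743 33189 bp from that of Gm45334. Peak2836 was 33365 bp from the start of Gm20554. These noncoding genes were named after their distances had been seen.

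Most of the Iroquois peaks were narrower than the median peak of the list. From chromosome 13, peak2833 (chr13:71021972-71022400) was 429 bp wide, peak2834 (chr13:72133882-72134804) 923 bp and peak2835 (chr13:72497430-72498069) 640 bp. Peak2836 (chr13:72661717-72662141) was 425 bp wide and peak2837 (chr13:72924655-72925191) 537 bp. From chromosome 8, peak1743 (chr8:92265992-92266636) was 645 bp and peak1744 (chr8:92315529-92316040) 512 bp. The median was 537 bp, against 703 bp over all peaks (quartiles 530 and 1053 bp), and peak2834 was the only one of the 7 wider than that median. When only peaks at least as wide as the median were kept, Irx1 and Irx2 each retained that 1 peak and the other 4 genes had 0.

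In base composition the 7 peaks lay within the range of the rest. Their GC content was between 40.1% (peak2833) and 52.7% (peak2836), with a median of 49.7%, against 47.5% over all peaks. The ratio of observed to expected CpG dinucleotides was between 0.177 and 0.331 with a median of 0.208, against 0.212, so none had the CpG density of a CpG island, the usual form of a promoter of a widely expressed gene. Repeat-masked bases made up 0% of peak2837, 2.28% of peak2834, 3.57% of peak1743, 7.19% of peak2835 and 8.98% of peak1744. In peak2833 and peak2836 they made up 49.4% and 51.5%, a share of at least 49% that was found in 7.26% of all peaks. That limit lies just under the lower of these 2 values, so the 7.26% describes their rank and is not an independent comparison.

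**Figure D3:**
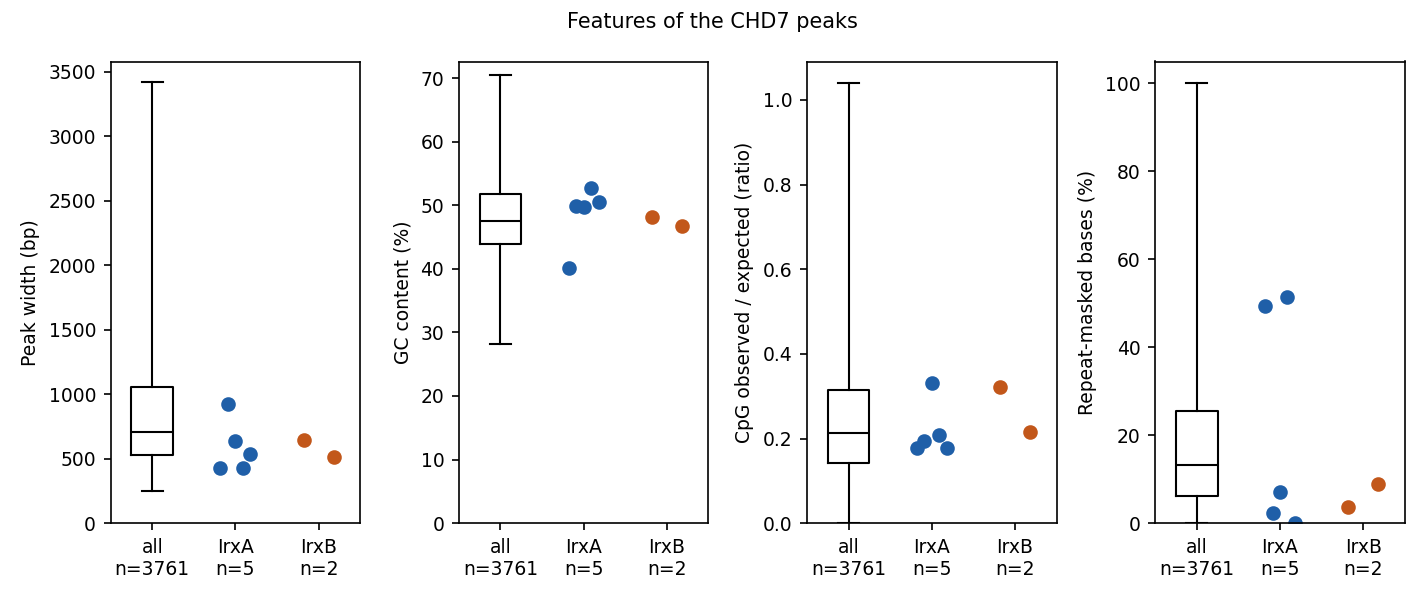
Width (bp), GC content (%), ratio of observed to expected CpG and repeat-masked bases (%) of the 7 Iroquois peaks, IrxA in blue and IrxB in orange, 1 point for each peak. The box gives the median and quartiles of all 3761 peaks and the whiskers their lowest and highest values. Of the 7, 6 are narrower than the median of 703 bp, and peak2833 and peak2836 stand apart from the other 5 in their repeat content.

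The spacing of the peaks differed within the clusters. Peak1743 and peak1744 were 49470 bp from each other, closer than the lower quartile of 51463 bp for the distance to the nearest peak over all peaks, and peak1743 was 1257641 bp from the next peak on its other side. In IrxA the closest pair, peak2835 and peak2836, was 164180 bp apart on either side of Irx2. Peak2833 was 1112157 bp from its nearest neighbour, with a gap of 1325719 bp on its other side. The median distance to the nearest peak was 164180 bp for the 7 and 131166.5 bp over all peaks.

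A set of 10 consensus motifs was searched on both strands, taken from the factors named with CHD7 in the study and from cardiac factors. In the central 200 bp, NKX2 (CACTTAA, or in the other spelling that was searched CACTTGA), the motif of the family of NKX2-5, a master regulator of cardiac progenitors, matched in 2 of the 7 peaks, against 5.48% of all peaks. It matched on the minus strand in peak2837, at -73 bp from the midpoint. In peak1743 it matched on the plus strand, at -69 bp, where 3 of its bases were repeat-masked. SP/KLF (GGGCGG), bound by zinc finger factors, also matched in 2, against 8.69%, in peak2835 and in peak2836, and in peak2836 all its bases were in a masked repeat. The caudal motif (CATAAA) matched in peak1744 alone, against 9.12% of all peaks. For NKX2 and for SP/KLF the share of 28.6% has a Wilson interval of 8.22 to 64.1%. Over the whole peaks the same 2 of 7 stood against 20.3% of all peaks for NKX2 and 23.4% for SP/KLF. The difference from all peaks thus depended on the window searched, and no test was applied to it.

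For the motifs of Iroquois proteins themselves, the spaced pair (ACANNTGT) matched in the central 200 bp of peak2836, against 6.99% of all peaks, and the palindrome (ACATGT), counted once although it reads the same on both strands, matched in none, against 4.63%. These are different lengths, so no match was counted for both. The motif of GATA factors, zinc finger regulators of heart development, was searched as AGATAA and matched in 0 of the 7 windows, against 11.8% of all. ISL1 (CTAATGG, or in the other spelling that was searched CTAATTG), MEF2, CTCF and TBX (AGGTGTGA) also matched in 0, against 3.51%, 1.89%, 1.99% and 0.718%. For 7 windows a share of 0 allows up to 35.4%, so none of these absences is distinguishable from the share over all peaks.

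Over the whole peaks there were 13 matches, none of them in peak2833. GATA matched in 3 peaks, peak2834, peak1743 and peak1744 (42.9%), against 36.8% of all peaks. The Iroquois palindrome matched in 2, peak2837 and peak1744 (28.6%), against 19.7%. Each of these peaks also held a caudal match, found in 35.8% of all peaks. ISL1, the motif of the LIM homeodomain factor of second heart field progenitors, matched in peak2834 only, against 13.4%. Peak1744 carried GATA, caudal and Iroquois matches together, peak1743 GATA with NKX2, and peak2837 NKX2, caudal and Iroquois. A match is only a run of letters, and binding of these factors was not measured here.

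**Figure D4:**
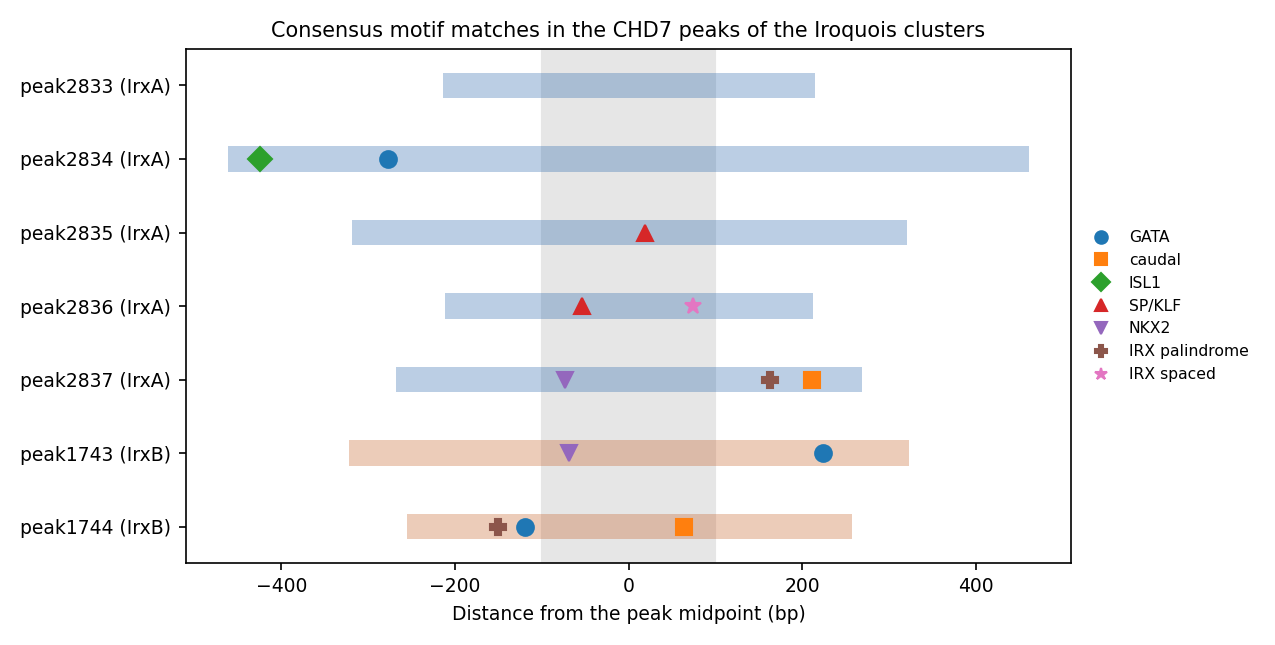
Positions of the 13 consensus matches in the 7 Iroquois peaks, by distance from the peak midpoint in bp, with bars for the extent of each peak (blue IrxA, orange IrxB) and grey shading for the central 200 bp. Symbols stand for motif families. Peak2833 holds no match, and the NKX2 matches of peak2837 and peak1743 lie at -73 and -69 bp, on opposite strands.

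The peaks of IrxA and IrxB shared no long stretch of identical sequence. Over the 10 pairs of an IrxA with an IrxB peak, the longest identical run on either strand was between 9 and 12 bp, with a median of 9 bp. The 2 IrxB peaks set against all other peaks of the list gave a median of 10 bp over 7508 pairs, with a range of 7 to 18 bp, and 8.62% of those pairs shared at least 12 bp. The Iroquois pair that shared 12 bp was peak2837 with peak1744. Longer peaks have more chance of a shared run, and widths were not matched in this description. The pairs were not limited to peaks at corresponding positions, and common descent of the peaks was not tested.

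Other homeobox families were counted in the same way. Of the 39 HOX genes, which lie in compact clusters and have a median domain of 16604 bp, 8 had a peak (20.5%, Wilson 95% interval 10.8 to 35.5%), and 2 had one in the promoter region. Of the 12 other TALE genes (among them the Meis and Tgif genes; median domain 418145.5 bp), 8 had a peak (66.7%, 39.1 to 86.2%), and 3 had one in the promoter region. For the 6 Iroquois genes the corresponding share with a peak was 83.3% (43.6 to 97.0%), with a median domain of 948429 bp and 0 in the promoter region. These intervals overlap for the Iroquois and the other TALE genes, and domain length differs between all 3 lists. Neighbouring Iroquois genes share peaks, as Irx3 and Irx5 do. The interval treats the 6 genes as independent and so understates their uncertainty. No gene of any list was called by the exact Poisson test.

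Among 10 homeobox genes of cardiac progenitors, 4 had a peak, and each had 1. The genes with a peak were Isl1, the second heart field regulator, at 199836 bp from its TSS, and Six2 at 65608 bp. The others were Shox2, which acts in the sinoatrial node, at 588265 bp, and Hopx at 4668 bp. None was in the promoter region, and Nkx2-5 had no peak in its domain of 130024 bp.

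Of 16 genes known as partners or targets of Iroquois factors in the heart, 9 had a peak. This share of 56.25% (Wilson interval 33.2 to 76.9%) stands against 22.7% of all genes. The median domain of the list was 169862.5 bp, against 90166 bp over all genes, so the shares are not matched for domain length. Rxra, encoding a nuclear receptor, had 3 peaks with the nearest at 22427 bp. Hand2, Tbx5 and Gata4, transcription factors of heart development, had 2 each, with the nearest at 387794, 13318 and 3655 bp. Gja1, encoding a gap junction protein, also had 2, and Hand1, Vdr, Kcnd2 and Bmp10 had 1 each. The peak of Vdr, 195 bp from the TSS, was the only one in a promoter region. Kcnd2, the target of Irx5 in the ventricular wall, had its peak 460037 bp away in a domain of 1636012 bp. The genes without a peak were Nkx2-5, Smyd1, Hdac1, Myh6, Myh7, Nppa and Gja5. The domains of Myh6, Myh7 and Nppa were 34671, 32520 and 47288 bp long, for which 0.0493, 0.0462 and 0.0672 peaks were expected.

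The genes most like the Iroquois genes with the most peaks, by equal number of peaks and closest domain length, came from other families. For Irx2 they were Zbtb20, Foxp1 and Nrp1, with domains of 1317494, 1318016 and 1321370 bp, out of 79 genes with 4 peaks. For Irx3 they were Mat2b, Smad2 and Got2, and for Irx5 Pmp22, Grip1 and Ppp2r3a, out of 901 genes with 2 peaks. The likeness rests on a count and a length in a single list, and no pattern over samples was available.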

How the data were processed

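Libraries were made from day 5 CP cells by CUT&RUN with anti-CHD7 or IgG, and from input, with 3 biological replicates each. The authors trimmed the reads with fastp 0.20.1, aligned them to mm10 with BWA 0.7.17.4, collapsed reads with the same molecular identifier, and ran MACS2 2.1.2 on each sample against IgG. Only peaks found in at least 2 overlapping replicates were kept. The submitters' processing notes also name deepTools 3.1.0. The deposited values are the start and end positions of each peak in bp, in 1 list with nothing else recorded for it. How strict the calls were and how overlapping peaks were joined are not given in the sources used here. The depth of the libraries is unknown, and reads from IgG and input were not analysed here. Unused columns of per-sample values numbered 0.

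Starts were taken as counted from 0, and the genome and annotation were GRCm38.p6 and GENCODE M21. One TSS per protein-coding gene was taken (protein-coding transcripts first, then APPRIS level, then spliced length). Domains ran 5 kb upstream and 1 kb downstream, extended by up to 1 Mb. Peaks per domain were compared with the sequenced length of the domain times the genome-wide rate by a two-sided exact Poisson test on every gene, with Benjamini-Hochberg adjustment, and genes were called at an adjusted P-value under 0.05. Counts have exact Poisson and shares Wilson 95% intervals. Members that share peaks are not independent.

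Genes were named by rule: the 6 Iroquois genes, the genes associated with or nearest to their peaks, the 3 genes most like the member with the most peaks in each cluster, and the comparison lists. The members, the lists and the motifs were chosen with earlier results of these data known. Values of single genes in the list of other TALE genes are not reported here. The motif search and the test were checked on simulated data, in which 166 of 200 features planted at 8-fold density and 2 of 19800 unplanted features were called. The simulated counts were independent, and features were planted only among those with larger expectations. The check therefore does not cover smaller departures, shared peaks or an uneven spread of peaks. Python 3.11.15 was used with numpy 2.4.6, pandas 2.3.3, scipy 1.17.1, pysam 0.24.0 and matplotlib 3.10.9. The alternatives tried were other limits of the extension, TSSs, association rules, expected rates and motif windows, the wider peaks alone, merged peaks, and peak edges in place of midpoints.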

Additional observations from a re-analysis of the deposited data

How the results depend on the processing

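The counts depended mainly on the reach of the domain and on the peaks narrower than the median. No alternative in which the exact Poisson test was run made any of the 6 genes pass it. The test was not run with the promoter region alone, the single nearest TSS or the 2 nearest genes. With an extension of 500 kb, Irx1, Irx3 and Irx4 had 1 peak each, and the ratio of observed to expected peaks fell below 1 for Irx1 (0.704) and Irx3 (0.716). It also fell for Irx4 (1.24), but rose for Irx2 (2.82, exact P = 0.0561) and for Irx5 (1.73). With 100 kb, Irx2 had 1 peak, IrxA had 1, and Irx1, Irx3 and Irx4 had 0 (ratios of 0), so that 2 of the 6 genes had a peak. In the same setting Irx5 kept its count of 2, and its ratio rose from 1.63 to 7.04 (exact P = 0.0335, adjusted P = 0.986), while IrxB had 3.33 peaks per Mb and IrxA 1.77, the opposite order. With peaks at least as wide as the median, Irx1 and Irx2 had 1 peak each, which was the same peak, Irx3, Irx4 and Irx5 had 0 (ratios of 0), and the ratio of Irx1 was 0.847. IrxA then had 1 peak (0.423 per Mb) and IrxB 0 (0 per Mb), 2 genes had a peak, the median width was 923 bp, and 13.1% of all genes had a peak. With the promoter region alone, every member and both clusters had 0 peaks, against 3.17% of all genes with a peak. With each peak given to the single nearest TSS, Irx1 had 1 peak, Irx3 and Irx4 had 0, 3 of the 6 genes had a peak, and 14.2% of all genes did. By construction the shorter extensions shrink the domains, the width limit removes peaks, and the nearest TSS gives each peak to 1 gene only.

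The share of all genes called by the test was 0.0137% with the 100 kb extension, with peaks under 1 kb apart merged, or with the rate of the same chromosome, and 0.0593% with peaks and bases over 5 kb from any TSS. In that last setting the ratio rose for each of the 5 genes with a peak. It was 1.63 for Irx1, 2.80 for Irx2 (exact P = 0.0568), 1.78 for Irx3, 2.64 for Irx4 and 2.09 for Irx5. Counting TSSs of all annotated genes lowered the share of Iroquois peaks over 50 kb from a TSS to 28.6%, and searching whole peaks raised the share with GATA to 42.9%. Over all peaks, too, the median distance to a TSS fell with all annotated genes, from 13852 to 7395 bp. The comparison with genes of long domains (44.6% with a peak) was added after the data had been seen. No paired analysis was possible because the deposited list pools the 3 anti-CHD7 replicates, and leaving out a replicate could not be run for the same reason. The small number of peaks limits the precision of every value here.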
